A study of Mus musculus with 12 samples.

Results

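The voltage-gated sodium channel subunits described here are 9 genes, chosen by symbol from the 23238 distinct gene symbols of the count files. They comprise 6 pore-forming alpha subunit genes (Scn1a, Scn3a, Scn8a, Scn9a, Scn10a and Scn11a) and 3 auxiliary beta subunit genes (Scn2b, Scn3b and Scn4b), and all 9 passed the filter on low counts. Polyadenylated RNA came from dorsal root ganglia of lumbar levels L3 to L5, which hold the cell bodies of sensory neurons with axons in the sciatic nerve. The C57BL/6 mice were 8 weeks old and unmodified as far as the labels state. The 4 groups were Female SNI, Female sham, Male SNI and Male sham, where SNI is sciatic nerve injury, with 3 libraries each and 12 in all. The sources used here give neither the kind of injury nor how long after surgery the ganglia were taken. The labels do not say that the libraries of a group came from separate animals or pools, so each p-value reflects library-to-library spread, possibly technical. The series title gives its subject as axon regeneration in males and females after peripheral nerve injury.

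A voltage-gated sodium channel opens on depolarisation and carries the inward current of the action potential. One alpha subunit forms the pore, and beta subunits alter its gating and its delivery to the membrane. Sensory neurons of the ganglion carry several alpha subunits in combinations that differ between large myelinated neurons and small nociceptors, the neurons that respond to damaging stimuli.

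After injury 4 subunit genes fell, all of them alpha subunits. Averaged over the sexes with equal weight, Scn1a fell by 40.6%, Scn8a fell by 28.9%, Scn10a fell by 27.5% and Scn11a fell by 23.3%. No subunit gene rose, beside 3.78% of all tested genes called higher. The 4 of 9 called lower (edgeR quasi-likelihood test, Benjamini-Hochberg adjusted p below 0.05) stand beside 2.73% of the 15036 tested genes called lower in the same comparison. The median log2 change of the 9 genes was -0.38, with 7 below 0, and that of all tested genes was 0.0031. Scn1a and Scn8a kept their calls when any 1 library was left out. Scn10a lost its call in 11 and Scn11a in 9 of those 12 fits, with both changes still below 0 in every fit. The tissue was bulk RNA, so fewer cells of a type and less RNA per cell cannot be told apart.

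Libraries held 12476606 to 15520746 counts, of which 0.121% to 0.187% fell on the 9 genes. Levels are given as CPM, the usual depth-scaled count, after TMM scaling of the library totals. These 3′ end counts are not scaled by length and depend on where each 3′ end is annotated, so levels are compared between libraries and not between genes. Atf3, a transcription factor induced by axon damage, was at 275 to 361 CPM in the 6 SNI libraries and at 43.6 to 56.7 CPM in the 6 sham libraries, so the groups did not overlap and every library matched its injury label. Male SNI replicate 2 stood apart from the others, at 99.9 on the first principal component of all tested genes. Female sham replicate 2 was next at 47.5, and the other 10 libraries lay between -32.8 and 0.963. Results that moved most with either library are given with and without it.

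Of the genes that fell, Scn8a and Scn11a have an upstream region that holds no annotated exon base, and these 250 bases before the transcription start are shown to set the sequence there beside the change. They come from the RefSeq promoter table of GRCm38.p6 and are written 5′ to 3′ on the strand of the gene, with motif matches in capitals. The Scn8a region lies at chr15:100870395-100870644 on the plus strand and the Scn11a region at chr9:119825457-119825706 on the minus strand. The RefSeq start used for Scn8a lies downstream of the first base of the GENCODE gene, so its window falls inside the annotated gene span, while that of Scn11a lies outside its gene. Scn8a has a second start in the table that is not shown.
Scn8a upstream: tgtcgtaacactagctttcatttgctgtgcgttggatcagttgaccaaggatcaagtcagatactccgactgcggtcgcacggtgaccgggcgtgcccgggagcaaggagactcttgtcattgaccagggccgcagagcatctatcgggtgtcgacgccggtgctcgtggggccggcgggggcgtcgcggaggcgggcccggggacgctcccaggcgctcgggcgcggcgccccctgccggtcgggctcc
Scn11a upstream: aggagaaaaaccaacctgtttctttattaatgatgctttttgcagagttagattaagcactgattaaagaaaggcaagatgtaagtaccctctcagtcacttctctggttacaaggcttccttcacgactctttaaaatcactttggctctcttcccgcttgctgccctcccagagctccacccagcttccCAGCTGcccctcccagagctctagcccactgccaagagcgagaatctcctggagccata
The Scn8a region had a GC content of 68.0% and 30 CpG dinucleotides, more than 94.1% of 32851 promoters of the same length. The Scn11a region had 48.0% GC and 3 CpG dinucleotides, more than 29.0% of promoters. The median promoter had 52.4% GC and 6 CpG dinucleotides. Both strands were searched for the AP-1 motif TGANTCA and for the CRE motif TGACGTCA. They were also searched for the TATA box, whose letters are TATAAA, and for the GC box, whose letters are GGGCGG. The E-box searched was CAGCTG, and the Runx core motif was TGTGGT. No match overlapped another. The only match in these 2 regions was CAGCTG in Scn11a, starting 59 bases before the transcription start, a motif that 13.0% of all promoters hold. TGANTCA occurred in 6.75% and TGACGTCA in 1.55% of all promoters, and neither was in the window of any of the 7 subunit genes with a promoter entry. Some of these windows are largely annotated exon and not upstream sequence alone. Exon bases make up all 250 for Scn10a, 229 for Scn4b, 211 for Scn1a and 94 for Scn2b. Scn3a and Scn3b have no entry.

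Scn1a encodes Nav1.1, an alpha subunit of myelinated sensory neurons, and lies on chromosome 2 (66270778 to 66440840, minus strand, GRCm38). Its level was 119.6, 157 and 134 CPM in the Female sham libraries and 72.0, 79.9 and 72.4 CPM in the Female SNI libraries. It was 152, 122 and 140 CPM in the Male sham libraries and 77.6, 105 and 85.1 CPM in the Male SNI libraries. All 6 SNI libraries lay below all 6 sham libraries, and Male SNI replicate 2 was the highest of the injured. Scn1a fell by 0.75 (SE 0.10) on the log2 scale with an adjusted p of 0.000497, and the fall was called in females (log2 change -0.87, SE 0.15, adjusted p = 0.00560) and in males (-0.63, SE 0.15, adjusted p = 0.0425). The means of the sham groups, 137 ± 19.0 CPM in females and 138 ± 15.2 CPM in males (SD, n = 3), differed by less than their spread.

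Scn8a encodes Nav1.6, the main alpha subunit of mature nodes of Ranvier, the gaps in myelin where the action potential is renewed. It lies on chromosome 15 (100869858 to 101045938, plus strand). Its level was 224, 218 and 211 CPM in the Female sham libraries, against 159.6, 153 and 157 CPM after SNI. In males it was 249, 231 and 251 CPM in sham and 156, 185 and 173 CPM after SNI. Again every SNI library lay below every sham library. The log2 change was -0.49 (SE 0.07, adjusted p = 0.000932), with -0.48 (SE 0.10) in females and -0.51 (SE 0.10) in males, both called at adjusted p of 0.0245 and 0.0209. Scn1a and Scn8a were the subunit genes whose 6 SNI libraries did not overlap the 6 sham libraries, 2 of 9, beside 2.04% of all tested genes with all SNI libraries lower.

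Scn10a encodes Nav1.8, a tetrodotoxin-resistant channel that carries much of the action potential current of nociceptors, and lies on chromosome 9 (119608456 to 119719322, minus strand). It was at 453, 515 and 461 CPM in the Female sham libraries, against 272, 299.7 and 290.2 CPM after SNI, with no overlap. Among males it was at 401, 393 and 409 CPM in sham and at 272, 476 and 299 CPM after SNI. Male SNI replicate 2, at 476 CPM, exceeded all 3 Male sham libraries, while the other 2 Male SNI libraries lay below them. The log2 change was -0.46 (SE 0.12, adjusted p = 0.0332) averaged over the sexes, -0.73 (SE 0.17, adjusted p = 0.0344) in females and -0.20 (SE 0.17, adjusted p = 0.639) in males. Without Male SNI replicate 2 the averaged change was -0.60 (adjusted p = 1.21e-05) and the male change -0.49 (adjusted p = 0.0111). With all libraries kept except 1 other, the averaged change lost its call each time, with adjusted p up to 0.0911.

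Scn11a encodes Nav1.9, a tetrodotoxin-resistant channel with a persistent current near the resting potential of nociceptors, and lies next to Scn10a on chromosome 9 (119753759 to 119825456, minus strand). It was at 342, 416 and 349 CPM in the Female sham libraries, against 233, 274 and 239 CPM after SNI. Male values were 341, 337 and 319 CPM in sham and 248, 353 and 268 CPM after SNI. The female groups did not overlap, and in males only Male SNI replicate 2 lay above the sham range. The log2 change was -0.38 (SE 0.10, adjusted p = 0.0345) averaged over the sexes, -0.57 (SE 0.14, adjusted p = 0.0467) in females and -0.20 (SE 0.14, adjusted p = 0.568) in males. Without Male SNI replicate 2 the averaged change was -0.46 (adjusted p = 0.000590) and the male change -0.36, still not called (adjusted p = 0.112). The averaged call was kept in 3 of the 12 fits that left out 1 library, those that dropped Male SNI replicate 2, Female sham replicate 1 or Female SNI replicate 2, and adjusted p reached 0.0976 in the others.

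**Figure D1:**
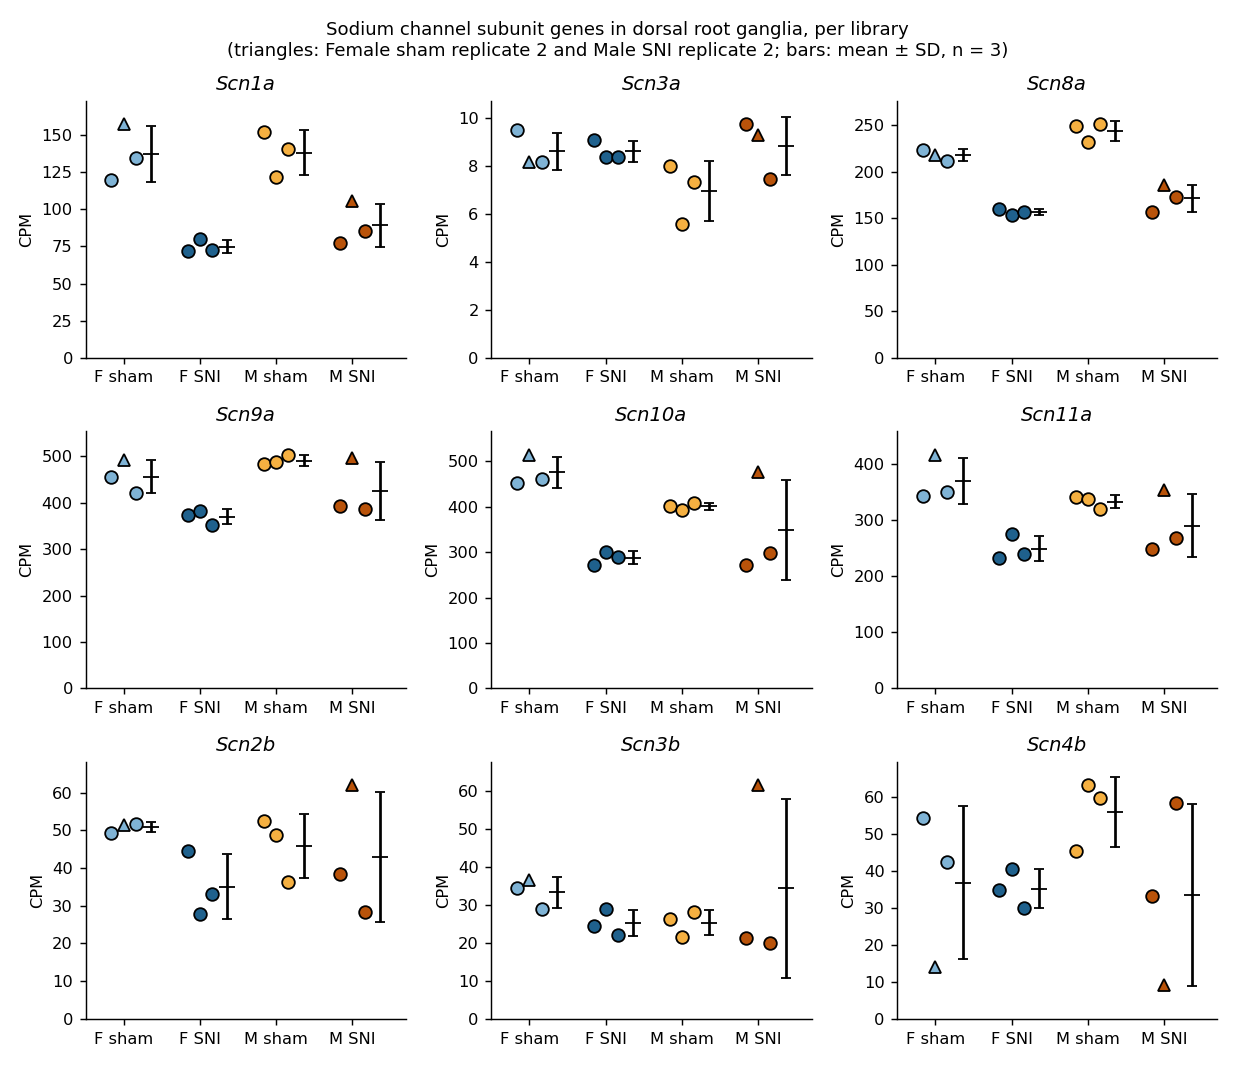
Level of each sodium channel subunit gene in CPM (linear axis from 0) in 12 libraries of 4 groups, F for female and M for male, with the mean and SD of 3 libraries beside the points. Triangles mark Female sham replicate 2 and Male SNI replicate 2. The SNI points of Scn1a and Scn8a all lie below the sham points. Male SNI replicate 2 lies above the Male sham range for Scn3a, Scn10a, Scn11a, Scn2b and Scn3b.

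Scn9a encodes Nav1.7, which amplifies small depolarisations in nociceptors and whose loss in people abolishes pain. It lies on chromosome 2 (66480080 to 66634962, minus strand), and 180 of its exonic bases overlap the antisense gene Gm13629 (mean 18.4 CPM), so its count is uncertain, since the strand used in counting is not stated. It was at 457, 493 and 421 CPM in the Female sham libraries, against 375, 383 and 352 CPM after SNI, without overlap. In males it was at 483, 487 and 504 CPM in sham and at 392, 497 and 387 CPM after SNI, where again replicate 2 alone reached the sham range. The log2 change of -0.26 (SE 0.08) was not called (adjusted p = 0.0974), with a 95% interval of -0.44 to -0.07. Without Male SNI replicate 2 it was -0.31 and called (adjusted p = 0.00452).

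Scn3a encodes Nav1.3, which is abundant in embryonic neurons and has been described as returning in rat sensory neurons after axotomy. The gene lies on chromosome 2 (65457118 to 65567627, minus strand). Here it was at 9.52, 8.17 and 8.16 CPM in the Female sham libraries, against 9.11, 8.36 and 8.37 CPM after SNI. Males had 8.02, 5.59 and 7.32 CPM in sham and 9.76, 9.30 and 7.47 CPM after SNI, so the ranges overlapped in both sexes. The log2 change was 0.17 (SE 0.16, adjusted p = 0.658) averaged over the sexes and 0.34 (SE 0.23, adjusted p = 0.537) in males. The 95% interval of the averaged change, -0.17 to 0.51, holds both no change and a rise.

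The beta subunit genes lie on chromosome 9, all on the plus strand: Scn3b at 40269217 to 40291618, Scn2b at 45117782 to 45130070 and Scn4b at 45138395 to 45154152. None was called by edgeR with all 12 libraries and none had an unadjusted p below 0.05, while limma with quality weights called Scn2b (-0.45, adjusted p = 0.0288). Scn2b encodes a beta subunit bound to the alpha subunit by a disulphide bond, and was at 49.3, 51.5 and 51.7 CPM in the Female sham libraries, against 44.4, 27.8 and 33.0 CPM after SNI. It was at 52.4, 48.8 and 36.4 CPM in Male sham and at 38.4, 61.9 and 28.4 CPM in Male SNI. The female groups did not overlap and the male groups did. The log2 change of Scn2b was -0.32 (SE 0.18, adjusted p = 0.393), and without Male SNI replicate 2 it was -0.49 and called (adjusted p = 0.0253).

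Scn3b encodes a beta subunit that binds without a covalent bond. It was at 34.5, 36.4 and 28.8 CPM in the Female sham libraries, against 24.5, 29.0 and 22.0 CPM after SNI. Among males it was at 26.4, 21.6 and 28.0 CPM in sham and at 21.4, 61.4 and 20.1 CPM after SNI. Male SNI replicate 2, at 61.4 CPM, lay above all other libraries. The averaged log2 change was 0.02 (SE 0.24, adjusted p = 0.988) with that library and -0.34 (adjusted p = 0.0897) without it. The sign of this change near 0 also turned when Male sham replicate 2, Female SNI replicate 2 or Female sham replicate 3 was left out.

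Scn4b encodes the beta subunit associated with resurgent sodium current, which flows on repolarisation. It was at 54.3, 14.0 and 42.4 CPM in the Female sham libraries, against 35.0, 40.5 and 30.0 CPM after SNI. In males it was at 45.4, 63.2 and 59.7 CPM in sham and at 33.3, 9.14 and 58.4 CPM after SNI. The lowest values, 14.0 and 9.14 CPM, were those of Female sham replicate 2 and Male SNI replicate 2, and the other 10 libraries lay between 30.0 and 63.2 CPM. The log2 change was -0.40 (SE 0.36, adjusted p = 0.637), with a 95% interval from -1.18 to 0.37. It was -0.17 (adjusted p = 0.730) without Male SNI replicate 2, -0.60 (adjusted p = 0.367) without Female sham replicate 2 and -0.37 (adjusted p = 0.114) without both. It was also -0.20 (adjusted p = 0.858) without Female sham replicate 1 and -0.74 (adjusted p = 0.223) without Male SNI replicate 3.

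Within females, 4 of 9 genes were called lower (Scn1a, Scn8a, Scn10a and Scn11a), beside 1.29% of all tested genes. Within males, 2 of 9 were called lower (Scn1a and Scn8a), beside 0.486% of all tested genes. The SNI libraries all lay below the sham libraries for 6 of 9 genes in females, beside 13.4% of tested genes. They did so for 2 of 9 genes in males, beside 8.83%, and for 6 of 9 in males without Male SNI replicate 2, beside 15.7%. The median log2 change of the 9 genes was -0.48 in females and -0.20 in males.

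**Figure D2:**
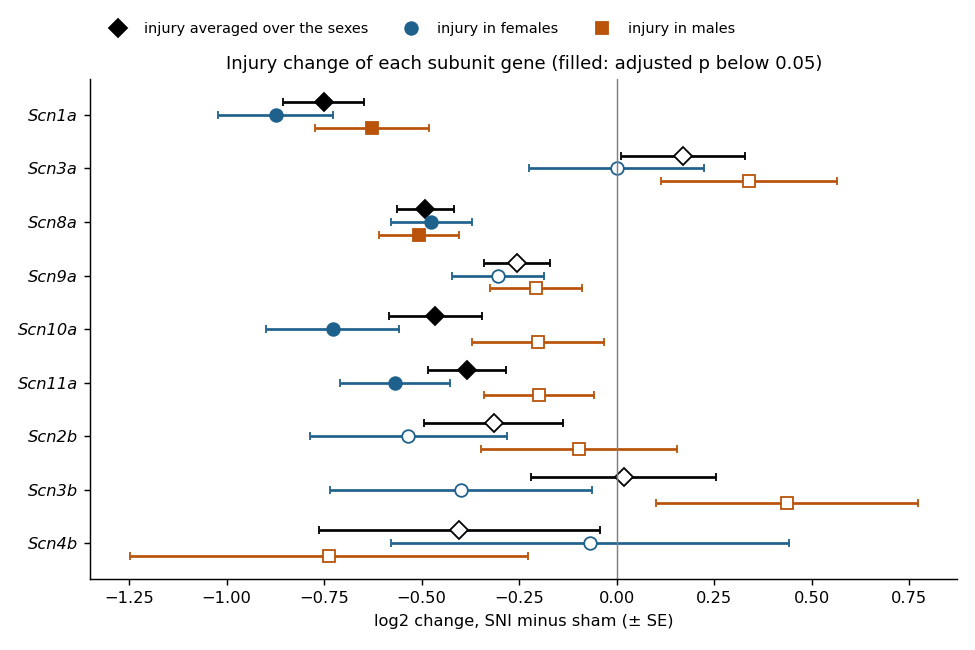
Log2 change of each subunit gene, SNI minus sham, on the horizontal axis, averaged over the sexes (diamonds), in females (circles) and in males (squares), with bars of 1 SE and filled symbols where the adjusted p was below 0.05. The 3 estimates lie close together for Scn8a (-0.49, -0.48 and -0.51) and apart for Scn10a (-0.46, -0.73 and -0.20).

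The difference between the male and the female change was tested as an interaction, and 0 of 9 genes were called, beside 0% of all tested genes. At an unadjusted p below 0.05 edgeR gave 1 of the 9 (Scn10a) and 1100 of the 15036 tested genes. At the same threshold DESeq2 gave 1 of the 9 and 1322 of 19067 genes, and limma with quality weights gave 0 of the 9 and 1656 of 15036. After adjustment DESeq2 and limma called 0 genes, as edgeR did. For Scn10a the male change less the female change was 0.53 (SE 0.24, 95% interval 0.01 to 1.04, unadjusted p = 0.0450, adjusted p = 0.647). It was 0.23 (adjusted p = 0.918) without Male SNI replicate 2. Over the 12 fits that left out 1 library it ranged from 0.23 to 0.68, with edgeR adjusted p of 0.215 to 0.922. For Scn8a the same difference was -0.03, with a 95% interval of -0.35 to 0.28, and for Scn1a it was 0.25, with an interval of -0.20 to 0.69.

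Between the sexes, 0 of 9 genes were called in sham and 0 of 9 after injury, beside 0.0399% of all tested genes in each, and edgeR with all 12 libraries gave none of the 9 an unadjusted p below 0.05. DESeq2 and limma with quality weights called none either. In sham, 2 of the 9 had an unadjusted p below 0.05 with limma, beside 1908 of 15036 tested genes. With edgeR it was 2 of the 9 on the sham groups alone, beside 1275 of 14269 genes. It was also 2 with sensory neuron marker scaling (beside 669 of 15036) and 2 without Male SNI replicate 2 (beside 1601 of 15349). After injury 3 of the 9 passed this threshold without Male SNI replicate 1, beside 964 of 15373 genes. Without Male SNI replicate 3 it was 2 of the 9, beside 2295 of 15356 genes. The 3 Male sham libraries (393 to 409 CPM) lay below the 3 Female sham libraries (453 to 515 CPM) for Scn10a, with a male minus female log2 difference of -0.25 (SE 0.17, adjusted p = 0.938). For Scn8a in sham, males (244 ± 10.8 CPM, SD, n = 3) lay above females (218 ± 6.09 CPM), with a log2 difference of 0.16 (SE 0.10, adjusted p = 0.938). Neither difference passed the test.

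Shares of the summed counts of the 6 alpha genes do not depend on library scaling, though they are shares of counts and not of channels. Scn1a held 7.46% to 8.71% in Female sham and 6.43% to 6.67% in Female SNI. In males it held 7.72% to 9.30% in sham and 6.48% to 6.98% after SNI, replicate 2 included. Thus the Scn1a share was lower in all 6 SNI libraries than in any sham library, a pattern noticed in these data and not tested.

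Scn3a moved the other way in share, from 0.452% to 0.594% in Female sham and 0.355% to 0.491% in Male sham to 0.698% to 0.814% in Female SNI and 0.572% to 0.844% in Male SNI. The ranges were separate within each sex, while the Scn3a level itself was not called. A share can rise without a rise in level when the counts of the other alpha genes fall. Mean Scn3a levels were 8.62 CPM in both Female sham and Female SNI, 6.98 CPM in Male sham and 8.84 CPM in Male SNI. Scn9a held 26.5% to 28.5% in Female sham and 31.4% to 33.5% in Female SNI, and its male ranges overlapped. Scn10a held 28.2% to 29.1% in Female sham and 24.3% to 25.9% in Female SNI. In males the Scn10a share was 24.5% to 25.1% in sham and 23.6%, 29.2% and 24.5% in SNI replicates 1, 2 and 3, so replicate 2 lay above every Male sham and every Female sham library.

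**Figure D3:**
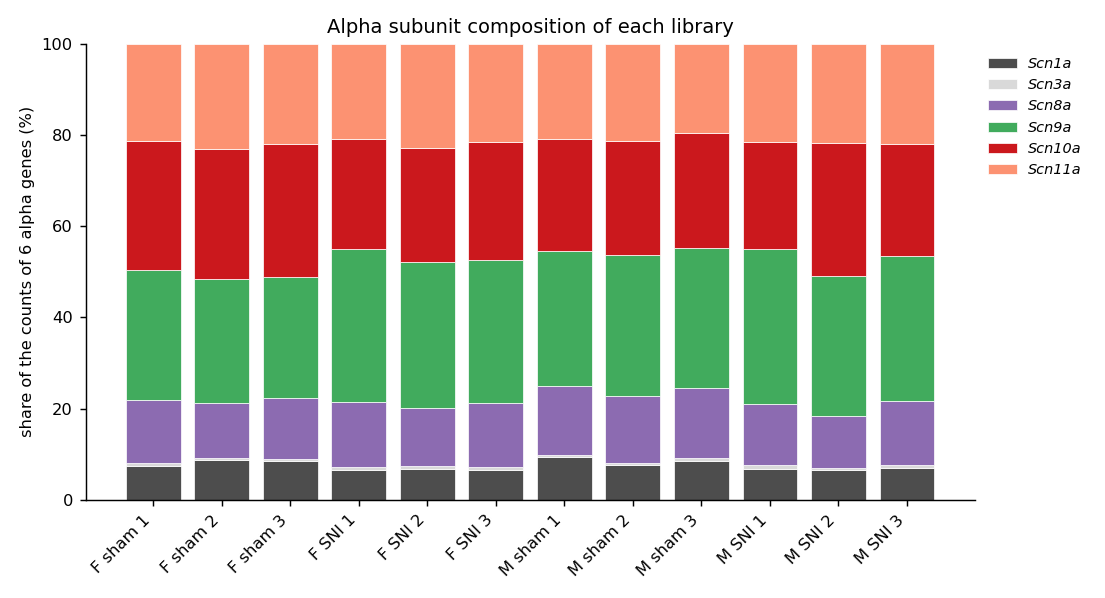
Share of each alpha subunit gene in the summed counts of the 6 alpha genes (vertical axis, percent), 1 bar per library, F for female and M for male. The Scn1a segment is 6.43% to 6.98% in the SNI libraries and 7.46% to 9.30% in the sham libraries.

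Across libraries the subunit genes did not all vary together. Over 12 libraries, Pearson's r of log2 CPM was 0.97 between Scn10a and Scn11a and 0.94 between Scn1a and Scn8a. With the group means removed these were 0.90 and 0.59, and Scn10a and Scn3b then had r of 0.93. Scn4b ran against the others after removal of group means, weakly for Scn3a (r of -0.22) and Scn8a (-0.42). Its r was then -0.76 with Scn3b and -0.80 with Scn10a. Without that removal its r was 0.23 with Scn8a and -0.0043 with Scn1a. All 36 pairs share the same libraries and scaling, and Female sham replicate 2 and Male SNI replicate 2 are the extremes of Scn4b, so these values are descriptions only. The median deviation of the 9 genes from their own means was -0.35 to -0.17 in 5 SNI libraries, 0.15 to 0.28 in the sham libraries and 0.20 in Male SNI replicate 2.

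**Figure D4:**
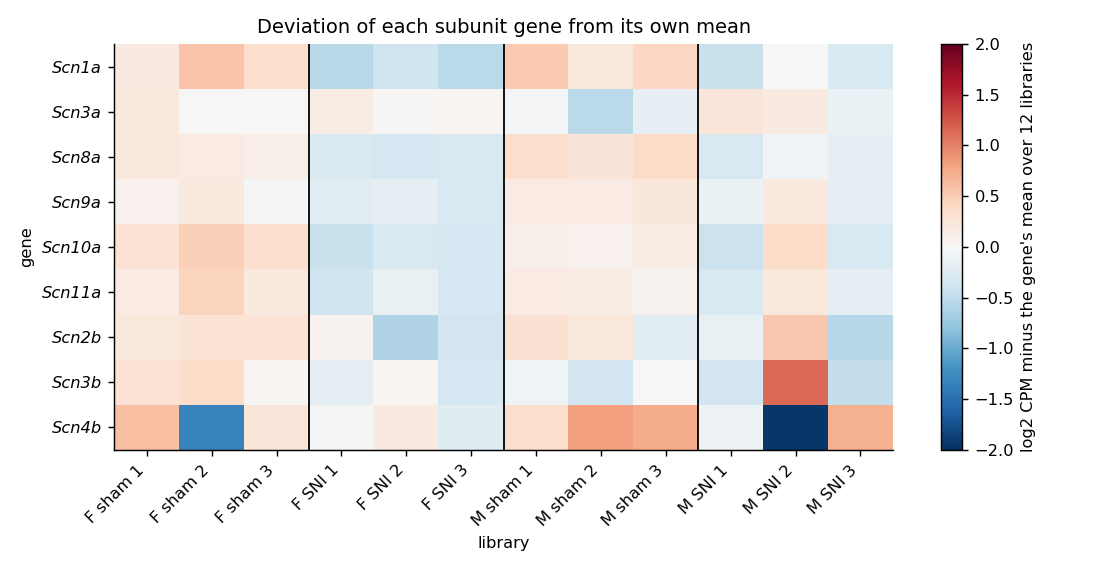
Deviation of log2 CPM from the mean of the gene over 12 libraries (colour, log2 units, from -2 in blue to 2 in red) for 9 subunit genes in rows and 12 libraries in columns, F for female and M for male. Male SNI replicate 2 departs from the other Male SNI libraries, most of all in Scn3b and Scn4b.

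The genes whose pattern over the 12 libraries was most like each subunit gene were ranked by Pearson's r of log2 CPM among 10858 genes with a mean of at least 5 CPM. For Scn8a they included Oxr1 (0.975) and Kcna2 (0.963), and for Scn1a they were Kcnab1 (0.970), Sv2a (0.970) and Cdk14 (0.968). For Scn10a they were Pnkd (0.980), Nacc2 (0.973) and Fgf1 (0.971), and for Scn11a Pnkd (0.971), Scn10a (0.968) and Nacc2 (0.965). Scn9a was closest to Pcp4 (0.952), Opa1 (0.949) and Ryr2 (0.945), and Scn3a to Utp23 (0.853), Txnl1 (0.838) and Tmem198 (0.832). Among beta subunit genes, Scn2b was closest to Pam16 (0.935), Nfasc (0.933) and Psmd10 (0.933), and Scn3b to Mtx1 (0.933), Camsap2 (0.932) and Plxnb1 (0.925). Scn4b was closest to Bambi (0.991), Fam103a1 (0.984) and Pigp (0.981). Bambi had a mean of only 5.92 CPM. Female sham replicate 2 (14.0 CPM) and Male SNI replicate 2 (9.14 CPM) were far below the other libraries for Scn4b. For Scn3b, Male SNI replicate 2 (61.4 CPM) was far above them. Likeness of pattern may thus reflect those libraries, and all these values are descriptions only.

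Other sodium channel genes outside the 9 are given by their averaged changes. Scn7a, which encodes a sodium-sensing channel that is not opened by voltage, had a log2 change of -0.18 (SE 0.07, edgeR adjusted p = 0.201), and limma with quality weights called it (adjusted p = 0.0498). Scn2a1, the gene of Nav1.2, had -0.11 (SE 0.20, adjusted p = 0.854). Scn4a, the muscle channel, was at most 2.41 CPM in any library, with a log2 change of -0.73 (SE 0.58, adjusted p = 0.582).

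Among 29 genes for proteins that bind, anchor, traffic or regulate sodium channels, 2 rose, 5 fell and 22 were not called. Of all tested genes, 3.78% were called higher and 2.73% lower in the same averaged comparison. The median log2 change of the 29 was -0.09. S100a10 encodes the annexin partner p11, which carries Nav1.8 to the membrane, and rose by 0.60 (SE 0.12, adjusted p = 0.00888). Female libraries held 945 to 971 CPM after SNI against 512 to 631 CPM after sham, without overlap, and male libraries held 567 to 1014 CPM against 602 to 625 CPM, with overlap. Fgf11, a fibroblast growth factor homologous factor of the kind that binds the channel's cytoplasmic tail, rose by 0.58 (SE 0.12, adjusted p = 0.0117), from 13.1 to 18.5 CPM in sham libraries to 19.3 to 27.0 CPM in SNI libraries.

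Its relative Fgf12 fell, with a log2 change of -0.47 (SE 0.13, adjusted p = 0.0451). Cntnap1 and Cntn1, which encode the paranodal adhesion partners Caspr and contactin, fell by 0.56 (SE 0.14, adjusted p = 0.0281) and 0.40 (SE 0.10, adjusted p = 0.0233). The kinase genes Camk2a and Prkce fell by 0.43 (SE 0.10, adjusted p = 0.0218) and 0.29 (SE 0.08, adjusted p = 0.0399). S100a10 and Fgf11 kept their calls in all 12 fits that left out 1 library. The 5 that fell lost theirs in 6 to 11 of those fits: Cntnap1 in 6, Camk2a in 7, Cntn1 in 8, Fgf12 in 9 and Prkce in 11.

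Some genes of the cell type marker lists were also called for injury averaged over the sexes. In that comparison 2.73% of all tested genes were called lower and 3.78% higher. Sham and SNI ranges overlapped for the sums of each neuronal list. Nefh alone held 2410 of the 2989 CPM of the A-fibre markers in Female SNI (means). The 10 A-fibre neuron markers, led by Nefh, summed to 3818 to 5051 CPM in sham and 2912 to 4192 CPM in SNI libraries, and 5 of the 10 fell. The 9 nociceptor markers, led by Calca, summed to 1915 to 2426 CPM in sham and 1383 to 2027 CPM in SNI libraries, and 4 of the 9 fell. The 11 general sensory neuron markers, led by Uchl1, summed to 14780 to 17784 CPM in sham and 15144 to 18988 CPM in SNI libraries, with 1 raised and 3 lowered. With libraries scaled to these markers in place of TMM, the averaged changes were -0.80 for Scn1a, -0.54 for Scn8a, -0.52 for Scn10a and -0.44 for Scn11a, all called, and Scn9a was called too (-0.31, adjusted p = 0.0177).

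The 7 macrophage markers, led by Csf1r, summed to 70.7 to 116 CPM in sham and 158 to 289 CPM in SNI libraries. Of the 7, 5 rose, beside 3.78% of all tested genes called higher. Of the 4 satellite glia markers, led by Apoe, 1 rose, and none of the 6 Schwann cell markers was called by edgeR or had an unadjusted p below 0.05. Male SNI replicate 2 had the highest sum of satellite glia markers (8104 CPM against 4062 to 5702 CPM in the other 11), of sensory neuron markers (18988 CPM) and of macrophage markers (289 CPM), and the lowest sum of nociceptor markers (1383 CPM). Single genes made up much of these sums in that library: Apoe held 7605 of 8104 CPM, Uchl1 7216 of 18988 CPM and Calca 615 of 1383 CPM. Other members went the other way, since the lowest Fabp7 (8.07 CPM) and Snap25 (160.8 CPM) of any library were in the Male SNI group. These sums therefore do not show that a whole list moved. The part of these marker sums in the sodium channel results was not tested. The 6 skeletal muscle markers, led by Acta1, summed to 1210 CPM in Male SNI replicate 1 and to 6.40 to 62.5 CPM elsewhere. Without that library the averaged changes of Scn1a and Scn8a were still called. Those of Scn10a and Scn11a and the male changes of Scn1a and Scn8a were not. These losses were not particular to that library. Of the 12 fits that left out 1 library, Scn10a lost its averaged call in 11 and Scn11a in 9. The male call of Scn1a was lost in 9 and that of Scn8a in 4. Of 4 central nervous system markers, Opalin and Slc32a1 were at 0 in every library, and the list, led by Aqp4, summed to at most 7.20 CPM.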

How the data were processed

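The deposited data are raw counts, whole numbers for each gene symbol in a separate file for every library, per the file headers. Libraries were made with the QuantSeq 3′ kit and sequenced single-end, per the labels' protocols. Bowtie2, bedtools and the build mm10 are named, without versions, in the submitters' processing notes. The sources used here do not state how strand, multiply mapped reads and duplicate molecules were handled, so reads shared by related channel genes may be split between them. Each file had 23282 rows, and 44 repeated rows were summed by symbol. The row Rn45s held 6.14% to 11.2% of counts.

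Genes were filtered with edgeR's filterByExpr (minimum count 10), leaving 15036, and scaled by TMM (factors 0.914 to 1.07). A single model of the 4 groups covered all 12 libraries, using edgeR 4.0.16, with limma 3.58.1 and DESeq2 1.42.0 as alternatives in R 4.3.3. Two-sided quasi-likelihood tests were adjusted by Benjamini-Hochberg over all tested genes. Intervals are at 95%. The lowest chi-square per gene between replicates was 8.63, above sampling noise, so all libraries were counted. The scripts were tested on simulated data. Positions and exon overlaps came from GENCODE vM21 and promoters from RefSeq, both GRCm38.

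Named genes were the 9 members, other sodium channel genes, channel partners called for injury, the 3 genes most like each member, the most abundant gene of each marker list, and Atf3; a few genes that this rule names are not reported here. Members and lists were chosen with earlier results of these data known. Alternatives were other normalizations, filters and tools, a replicate block, fits on the groups compared alone, and libraries left out.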

Additional observations from a re-analysis of the deposited data

How the results depend on the processing

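The number of subunit genes called for injury averaged over the sexes was 4, with 2 to 6 when 1 library was left out. In females it was 4, with 1 to 5 when 1 library was left out and 2 under sensory neuron marker scaling. In males it was 2, with 0 to 3 when 1 library was left out, 0 in the fit on the male groups alone and 5 without both Male SNI replicate 2 and Female sham replicate 2. Calls over all genes moved as well: 73 genes of 15036 were lower in males, against 1 of 14332 in the fit on the male groups alone and 258 of 15290 without both libraries. The interaction and both sex comparisons gave 0 in all settings run. Over all genes, 980 calls for averaged injury became 2008 with limma quality weights, 1766 without Male SNI replicate 2 and 1848 without both libraries. Most other fits that left out 1 library gave fewer calls, down to 626 without Female SNI replicate 3. Genes called lower in females, 194 with all libraries, ranged from 34 to 572 in the fits that left out 1 library. In males the genes called lower ranged from 16 to 178 in those fits. A replicate block gave 4, 4 and 2 subunit genes for averaged injury, females and males. Deviations of libraries with the same number had r of -0.091 to 0.082 between groups compared directly, so the numbers were not taken to pair those libraries. Between Female sham and Male SNI, which no comparison sets against each other alone, r was 0.11, 0.43 and 0.10 for numbers 1, 2 and 3. Both groups do enter the averaged change and the interaction, so a deviation that these libraries share bears on those estimates.

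Signs turned only for changes that were not called. Averaged over the sexes, Scn3b (0.02) became -0.025 with library totals, -0.23 with limma, -0.057 with the replicate block, -0.055 with sensory neuron marker scaling and -0.30 without both libraries. In females, Scn3a (0.00033) became -0.0022 with DESeq2, -0.0028 with RLE scaling, -0.0014 with no count filter and -0.03 without both libraries, and Scn4b (-0.07) became 0.11 with the replicate block. In males, Scn3b (0.44) became -0.16 with limma and -0.28 without both libraries. In the interaction, Scn1a became -0.031 with sensory neuron marker scaling, Scn4b (-1.34 to -0.23 when 1 library was left out) became 0.17 without both libraries, and Scn9a became -0.0017 with library totals, -0.052 with limma, -0.18 with sensory neuron marker scaling and -0.083 without both. Leaving out 1 library gave ranges that crossed 0 for Scn3b averaged (-0.34 to 0.15), Scn3a in females (-0.047 to 0.072), Scn4b in females (-0.46 to 0.32), Scn2b in males (-0.46 to 0.13), Scn3b in males (-0.29 to 0.71), Scn2a1 averaged (-0.32 to 0.0051), and Scn8a (-0.10 to 0.029) and Scn9a (-0.03 to 0.17) in the interaction. The cause was not tested.

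Within females, Scn1a kept its call in all 12 fits that left out 1 library, Scn8a lost it without any 1 of the 6 female libraries, and Scn10a and Scn11a each lost it in 9 fits (adjusted p up to 0.156 and 0.193). Within males, Scn1a lost its call in 9 and Scn8a in 4 of these fits. Sensory neuron marker scaling moved the median change of all genes in males to -0.18, so changes under it are relative to that shift. With 3 libraries a group, beta subunit changes have wide intervals.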
